A study of Homo sapiens with 2 samples.

Results

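The LDL receptor family is a set of cell-surface receptors built from cysteine-rich ligand-binding repeats and propeller-like domains. The genes described here are VLDLR, LRP8, LRP1, LRP4, LRP5, LRP6, LRP3, LRP10 and LRP12, which are 9 of the 28117 genes in the deposited tables. The list was chosen by name, but with values of this same contrast in view, because VLDLR and LRP1 had been seen among the lowest genes of the tRF-3004b library. The ratios below are therefore a description and carry no test. All 9 members exceeded 1 CPM (a count scaled by library size) in each library by itself. A mean of at least 1 CPM over both libraries was reached by 13750 genes, called measured below.

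The comparison was between 2 libraries of poly-A RNA, both from HEK293T, a human embryonic kidney cell line that carries the SV40 large T antigen. In the tRF-3004b group, cells were transfected with a synthetic copy of tRF-3004b, a small RNA cut from a transfer RNA. In the control group, cells received GL2, a non-targeting RNA. The dose was 500 nM of either RNA, for 120 h. Each group is 1 library of 1 cell line, so no difference here has a replicate check, no p-value can be given, and each 95% interval covers counting error only. In bulk RNA of this kind, fewer cells of a type and less RNA per cell cannot be told apart. The transfected RNAs are shown first, with bases 2 to 8 (the seed) in capitals, because the seed complement was searched in the receptor transcripts.
tRF-3004b: uCAAAUCUcgguggaaccucca
control RNA: cGUACGCGgaauacuucgauu

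These receptors bind ligands outside the cell, and most carry them inside through clathrin-coated pits before returning to the surface. VLDLR and LRP8 (also called ApoER2) take up lipoproteins and transmit the reelin signal through the tail adaptor DAB1. LRP1 is a very large endocytic receptor for protease-inhibitor complexes, lipoproteins and many other ligands. LRP5 and LRP6 are co-receptors of Frizzled proteins for Wnt, and LRP4 is the agrin receptor of the neuromuscular junction. LRP3, LRP10 and LRP12 are more distant relatives with fewer known ligands.

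The tRF-3004b library held 1809193 estimated counts and the control library held 19609933, a 10.8-fold difference in depth. A single count was worth 0.563 CPM in the tRF-3004b library and 0.0501 CPM in the control library. Of 10 HEK293 marker genes, 9 exceeded a mean of 1 CPM, led by VIM and LIN28B. Markers of other cells were higher in the tRF-3004b library. The 9 fibroblast markers summed to 98.0 CPM there, against 10.5 CPM in the control library, and the 10 blood cell markers to 55.7 CPM, against 4.06 CPM. The 9 epithelial and urothelial markers summed to 42.8 CPM in the tRF-3004b library and 12.2 CPM in the control library, with KRT5, KRT14 and UPK3A at 0 in both. The 7 macrophage and adipocyte markers summed to 15.8 CPM in the tRF-3004b library and 2.16 CPM in the control library. All 6 fibroblast, 6 blood, 5 epithelial and 5 macrophage or adipocyte markers measured had log2 ratios above 0. A marker near 0 in the control library can count as measured only if it is higher in the tRF-3004b library. For such markers, as with CD163 at 4 counts against 0, the direction was set by that filter. MS4A1 and CSF1R, listed but not measured, had 0 counts in the tRF-3004b library and 1 each in the control library. The part of these cells' RNA in the results below was not tested.

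Among the 9 receptors, VLDLR and LRP1 had the lowest log2 ratios, LRP12 and LRP8 were lower by smaller factors, LRP6 was slightly lower, and LRP4, LRP5, LRP3 and LRP10 could not be told from no change. The intervals of VLDLR and LRP1 overlapped those of LRP12 and LRP4. Of the 9 log2 ratios, 8 were below 0 and 1 was above, where 55.5% of all measured genes and 79.8% of genes of at least 7000 bases and 10 CPM were below 0. Of the members, VLDLR, LRP1 and LRP12 were at least 2-fold lower, which is 3 of 9, or 33.3%, beside 14.3% of the 13750 genes measured. No member was at least 2-fold higher, beside 12.3% of all genes. The whole counting interval lay below 0 for 5 members, or 55.6%, beside 28.6% of all genes, and above 0 for none, beside 23.3%. Among genes of at least 4000 bases and 10 CPM, it lay below 0 for 53.9%, a share close to that of the members. Since VLDLR and LRP1 prompted the list, the other 7 give the plainer count. Of these, 1 was at least 2-fold lower, or 14.3%, the same share as over all genes. That match depends on the scaling, as LRP8 lay just short of 2-fold. With total counts, 2 of the 7 were at least 2-fold lower, or 28.6%, beside 15.4% of all genes. With TPM (abundance per transcript length) 2 were as well, beside 17.7%. The median log2 ratio of the 7 was -0.54, while that of all 9 members was -0.72 and that of all genes was -0.11. Genes of at least 4000 bases and 10 CPM had a median of -0.37. With the median of similar-length genes subtracted from each member, the median of the 9 was -0.25.

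**Figure D1:**
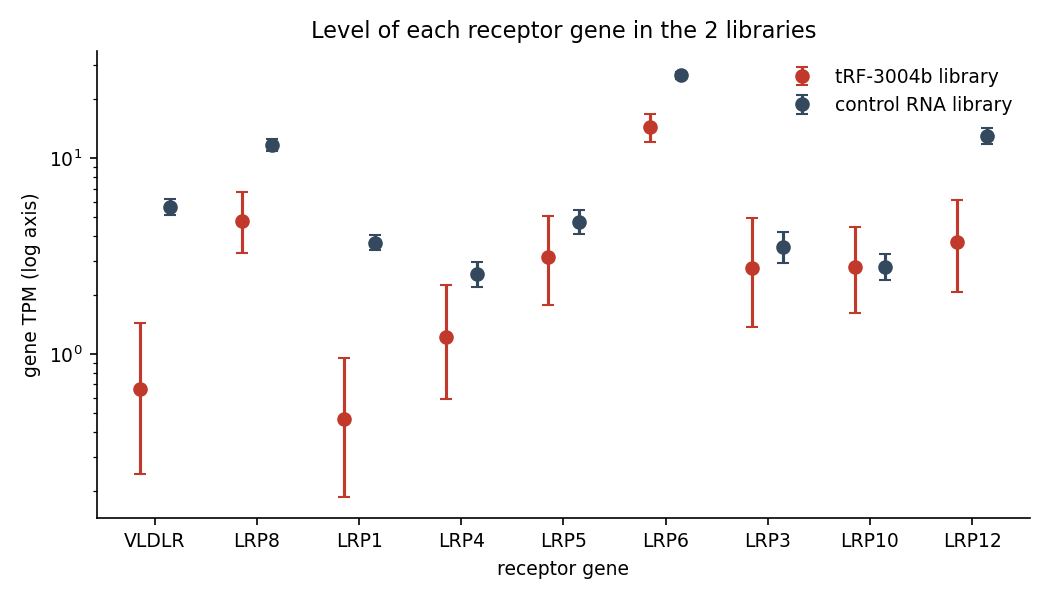
TPM (log axis) of each receptor gene in the tRF-3004b library (red, left of each pair) and the control library (dark blue, right), with exact Poisson 95% intervals of the count scaled to TPM. VLDLR and LRP1 show the widest gaps between libraries, and the LRP10 points coincide, at 2.78 and 2.80 TPM.

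VLDLR takes up triglyceride-rich lipoproteins and binds reelin. It had 6 counts in the tRF-3004b library and 462 in the control library, or 3.38 CPM against 23.2 CPM. The log2 ratio was -2.76 (interval -4.23 to -1.64), 6.78-fold lower, so that even the upper end of the interval lay beyond 2-fold. Per length, the VLDLR level was 0.666 TPM in the tRF-3004b library and 5.66 TPM in the control library. The gene lies on chromosome 9, from 2621787 to 2660056 (GRCh38). Its antisense neighbour VLDLR-AS1 had 0 counts in the tRF-3004b library and 19 in the control library. Strand use in the authors' counting is not given, and VLDLR-AS1 shared 709 words of 31 bases with VLDLR transcripts, so reads over that stretch may belong to either gene.

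LRP8, the closest relative of VLDLR in the reelin pathway, was lower by a smaller factor. It had 33 counts in the tRF-3004b library and 726 in the control library, or 18.6 CPM against 36.4 CPM. The log2 ratio was -0.97 (interval -1.52 to -0.47). The LRP8 interval ended at -1.52 on its low side and that of VLDLR at -1.64 on its high side, so the intervals of these related receptors did not overlap. LRP8 lies on chromosome 1, from 53242364 to 53328070. The overlapping long non-coding gene MAGOH-DT had 2 counts in the tRF-3004b library and 18 in the control library. Summed over VLDLR and LRP8, the pair had 22.0 CPM in the tRF-3004b library and 59.6 CPM in the control library, a log2 ratio of -1.44 (interval -1.94 to -0.98).

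LRP1 clears protease-inhibitor complexes, apolipoprotein-rich particles and dying-cell debris in liver, vessel wall and macrophages. It had 7 counts in the tRF-3004b library and 494 in the control library, or 3.94 CPM against 24.8 CPM. The log2 ratio was -2.64 (interval -3.97 to -1.60), 6.23-fold lower. Per length it had the lowest level of the 9 members in the tRF-3004b library, at 0.466 TPM, against 3.71 TPM in the control library, where it held the sixth place. LRP1 lies on chromosome 12, from 57128483 to 57213361, and its antisense gene LRP1-AS had 0 counts in both libraries. LRP1 is abundant in fibroblasts and macrophages. The fibroblast markers and the mixed macrophage and adipocyte markers summed higher in the same tRF-3004b library, the mixed list on 28 counts there. The part of such cells in the LRP1 value was not tested.

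The Wnt co-receptors differed little between libraries. LRP6, phosphorylated on its tail when Wnt binds, was the best counted member, with 148 counts in the tRF-3004b library and 2416 in the control library. Its level was 83.3 CPM against 121 CPM, a log2 ratio of -0.54 (interval -0.79 to -0.30). LRP5, its close relative with a known role in bone mass, had 16 counts in the tRF-3004b library and 215 in the control library, at a log2 ratio of -0.26 (interval -1.09 to 0.47). The LRP5 interval held both 0 and the LRP6 value. LRP5L, a pseudogene that shares 78 words of 31 bases with LRP5, had 1 count in the tRF-3004b library and 58 in the control library, so the LRP5 value is uncertain by reads split between them. LRP6 lies on chromosome 12, from 12116025 to 12267044, and LRP5 on chromosome 11, from 68298412 to 68449275.

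LRP4, the agrin receptor and a binder of the Wnt inhibitor sclerostin, had 10 counts in the tRF-3004b library and 185 in the control library. The log2 ratio was -0.72 (interval -1.80 to 0.19), not distinguishable from 0 at this depth. Its antisense gene LRP4-AS1, which shares 460 words of 31 bases with it, had 0 counts in the tRF-3004b library and 16 in the control library. LRP4 lies on chromosome 11, from 46856717 to 46918550.

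The distant relatives went separate ways. LRP12, first described as a gene suppressed in tumours, had 15 counts in the tRF-3004b library and 469 in the control library, or 8.44 CPM against 23.5 CPM. Its log2 ratio was -1.47 (interval -2.33 to -0.74). LRP3 had 11 counts in the tRF-3004b library and 124 in the control library, which is 6.19 CPM against 6.22 CPM and a log2 ratio of -0.0059 (interval -1.05 to 0.88). LRP10, a receptor that moves between the Golgi apparatus and endosomes, was the only member above 0. It had 17 counts in the tRF-3004b library and 170 in the control library, or 9.57 CPM against 8.52 CPM, at a log2 ratio of 0.17 (interval -0.65 to 0.89). Both intervals held 0. LRP12 lies on chromosome 8 (104489236 to 104589258), LRP3 on chromosome 19 (33194330 to 33208864) and LRP10 on chromosome 14 (22871740 to 22881713). Transcripts of LRP12 and LRP10 shared at least 1 word of 31 bases with 5091 and 3299 other genes, so some of their counts may come from repeats.

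Of the 36 pairs of members, 11 had intervals that did not overlap. In all 11 the lower gene was VLDLR, LRP1 or LRP12. LRP12 lay apart only from LRP10. In the other such pairs the lower gene was VLDLR or LRP1, which prompted the list, so this count largely restates that choice. The share of such pairs among all genes was not computed. Summed over all 9 members, the family had 148 CPM in the tRF-3004b library and 264 CPM in the control library, a log2 ratio of -0.83 (interval -1.02 to -0.65). LRP6 made up much of both sums. Without LRP6 the log2 ratio of the sums was -1.14 (interval -1.42 to -0.87). Both of these ratios include VLDLR and LRP1, whose low values prompted the list. Of the sums that leave them out, LRP5 with LRP6 had a log2 ratio of -0.51 (interval -0.75 to -0.29). LRP3, LRP10 and LRP12 together had -0.66 (interval -1.14 to -0.22).

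Levels per length placed LRP6 first in both libraries, at 14.4 TPM in the tRF-3004b library and 26.5 TPM in the control library, with intervals apart from those of the next gene. LRP6 held 42.4% of the members' summed TPM in the tRF-3004b library and 35.7% in the control library. In the tRF-3004b library the order then ran LRP8 (4.79 TPM), LRP12 (3.73 TPM), LRP5 (3.12 TPM), LRP10 (2.78 TPM), LRP3 (2.76 TPM), LRP4 (1.23 TPM), VLDLR and LRP1. From LRP8 down to LRP1, the interval of every gene overlapped that of its neighbour. In the control library LRP12 (13.04 TPM) and LRP8 (11.7 TPM) followed LRP6, then VLDLR (5.66 TPM), LRP5 (4.74 TPM), LRP1 (3.71 TPM), LRP3 (3.51 TPM), LRP10 (2.80 TPM) and LRP4 (2.57 TPM). There, gaps beyond the counting interval followed LRP6, LRP8 and LRP5, and the other neighbours overlapped. VLDLR made up 1.96% of the members' TPM in the tRF-3004b library and 7.62% in the control library. LRP10 made up 8.19% in the tRF-3004b library and 3.77% in the control library.

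The family's transcripts are long, and long transcripts as a class were lower in the tRF-3004b library. With 8711 genes of at least 10 CPM on average split into 10 bins by length, the bin up to 1300 bases had a median of 0.63 and the bin from 7825 bases a median of -0.47. Among the 1201 such genes of at least 7000 bases, 79.8% were lower and 16.1% were at least 2-fold lower. The members' most abundant transcripts ran from 4058 bases (LRP3) to 14923 bases (LRP1). Each member was therefore set beside the genes whose transcript was at most 25% longer, or shorter by the same factor, and whose mean CPM lay within 2-fold of its own.

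VLDLR and LRP1 stood low even among genes of their length. Both prompted the list because they were among the lowest genes of this library, so their low ranks here partly restate that choice. Of 246 genes comparable to VLDLR (9213 bases), 1 had a lower log2 ratio, or 0.407%, and their median was -0.64. Of 39 genes comparable to LRP1, 0 had a lower ratio, and their median was -0.20. Such a count of 0 in 39 is coarse, because few genes are that long. For LRP12 (4149 bases), 56 of 834 comparable genes were lower, or 6.71%, at a median of -0.31, and 2.29% with a wider length window of 1.5-fold and a mean of at least 10 CPM. LRP8 (6915 bases) lay above 135 of 613, or 22.0%, at a median of -0.50. LRP6 (10252 bases) lay near the middle, above 116 of 290 comparable genes, whose median of -0.43 was close to its own -0.54. LRP4 lay above 39.5%, LRP5 above 55.6%, LRP3 above 62.4% and LRP10 above 76.1% of their comparable genes. With the median of similar-length genes (mean of at least 10 CPM) subtracted, LRP6 moved to -0.058, outside its own interval, whereas VLDLR stood at -2.29 and LRP1 at -2.21.

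**Figure D2:**
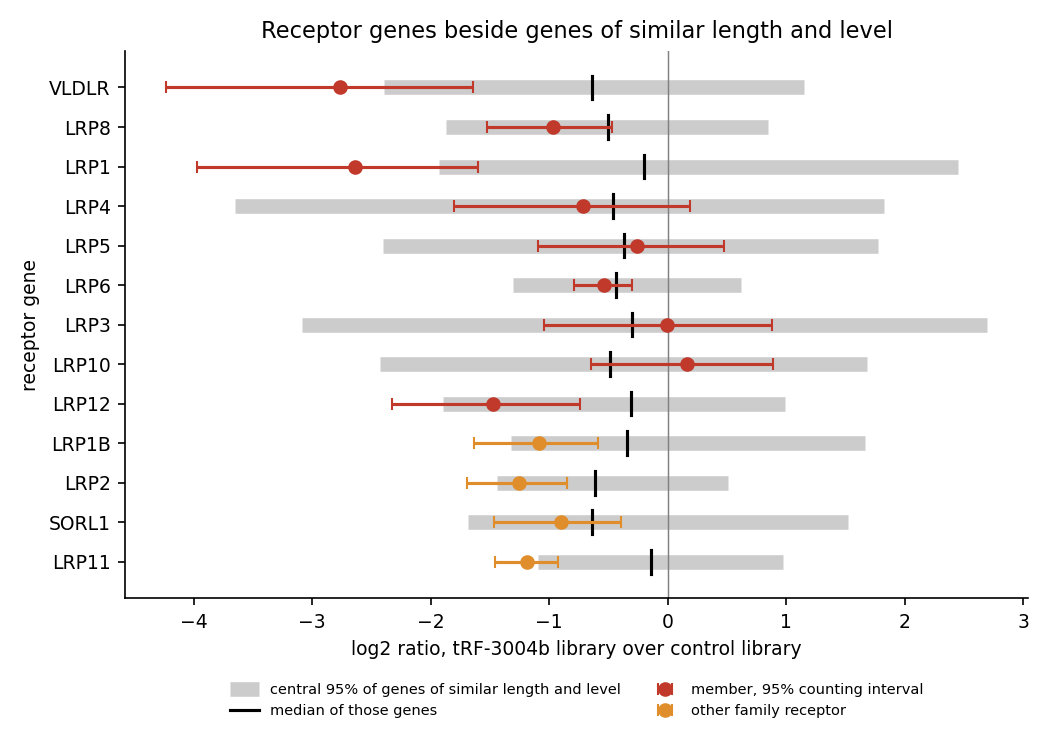
Log2 ratio (tRF-3004b over control) for the 9 members (red) and 4 other family receptors (orange), with 95% counting intervals, over the central 95% (grey bars) and the median (black ticks) of genes of similar length and level. VLDLR, LRP1 and LRP11 lie left of their grey bars, and LRP5, LRP6, LRP4, LRP3 and LRP10 lie well inside theirs.

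**Figure D3:**
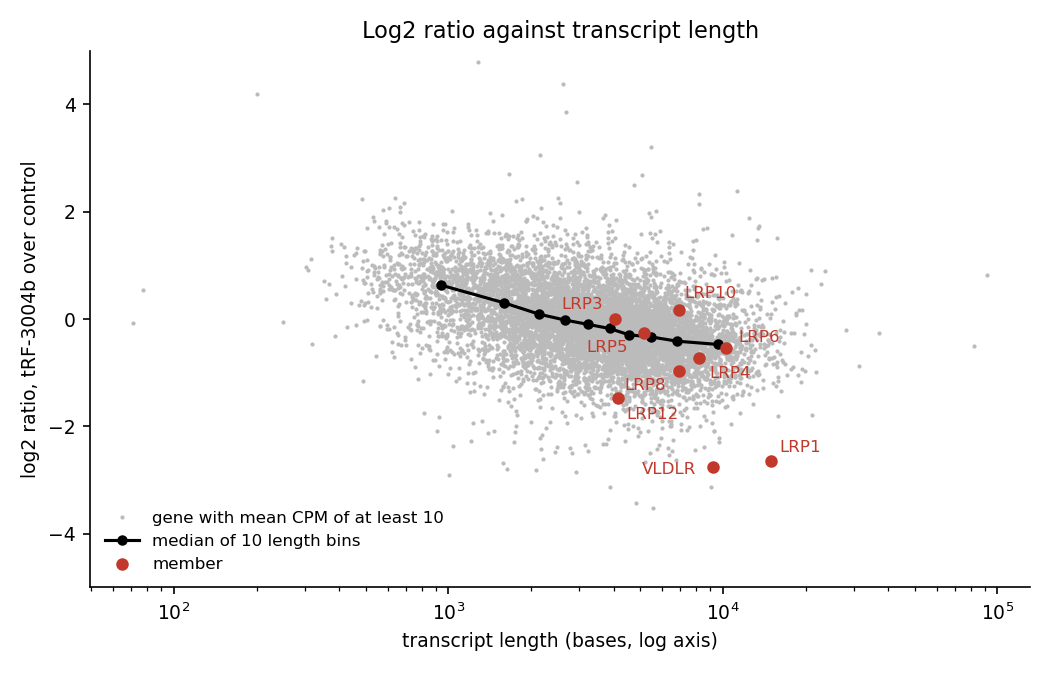
Log2 ratio against transcript length (log axis) for genes with a mean of at least 10 CPM (grey points, 6 of them beyond the axis), the median of each of 10 length bins (black line, drawn at the bin's median length), and the members (red, with 4 of them averaging below 10 CPM). The line falls with length from 0.63 to -0.47, and most members lie near it, while VLDLR, LRP1 and LRP12 lie below.

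GC content of the transcripts spread the members widely, from 39.7% in LRP12 and 40.2% in LRP6 to 66.0% in LRP3. VLDLR (42.7%) and LRP1 (60.1%), the lowest members, lay far apart on this scale. Among genes also within 5 points of GC content, 0 of 87 lay below VLDLR and 19 of 208, or 9.13%, below LRP12. The rank of VLDLR again partly restates the choice of the list. For LRP1 this left 6 genes, too few to rank it. LRP3 and LRP5, both rich in GC, lay above 50.8% and 44.3% of such genes.

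The other 4 receptors of the family that were examined all had log2 ratios below 0, beside 55.5% of all measured genes. Among genes of at least 7000 bases and 10 CPM, 79.8% were below 0. Of the 4 receptors, 3 were at least 2-fold lower, beside 14.3% of all genes. The whole interval lay below 0 for all 4, beside 28.6% of all genes and 63.0% of genes of at least 7000 bases and 10 CPM. LRP2 (megalin, an uptake receptor of the kidney tubule) had 50 counts in the tRF-3004b library and 1341 in the control library, at a log2 ratio of -1.26 (interval -1.69 to -0.85). LRP11 had 124 counts in the tRF-3004b library and 3173 in the control library, or 34.9 TPM against 101 TPM, and its log2 ratio was -1.19 (interval -1.46 to -0.93). It was thus higher in TPM than LRP6 in both libraries. LRP1B, the nearest relative of LRP1, had 33 counts in the tRF-3004b library and 787 in the control library, at -1.09 (interval -1.64 to -0.58). SORL1, a sorting receptor of endosomes, had 32 counts in the tRF-3004b library and 673 in the control library, at -0.90 (interval -1.47 to -0.39). The LRP1B interval lay above the LRP1 value of -2.64 but touched the LRP1 interval, which reached -1.60. LRP11, at 3634 bases, lay below all but 13 of 825 genes of similar length and level. The other long receptors ranked less low, with 9.38% of comparable genes below LRP2, 10.2% below LRP1B and 33.3% below SORL1.

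The split of each member's counts among RefSeq transcripts was thin in the tRF-3004b library and better counted in the control library. For VLDLR, all 6 counts of the tRF-3004b library went to NM_001322226, which is 207 bases shorter than the full-length form NM_003383 and held 0 of the control counts. In the control library 90.2% went to NM_003383 and 9.77% to NM_001018056, which is 84 bases shorter and lacks the segment for the O-linked sugar domain. For LRP8, 100% of the 33 tRF-3004b counts went to NM_017522, against 56.3% in the control library (interval 52.6% to 60.0%), where NM_033300, 279 bases longer, had the other 43.7%. For LRP12, 100% of the 15 tRF-3004b counts went to NM_001135703, against 25.1% in the control library. LRP10 counts were 74.0% NM_014045 in the tRF-3004b library and 100% in the control library.

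For VLDLR, LRP8 and LRP12 these splits cannot be read as a change of isoform. With even coverage, the bases by which the LRP8 forms differ would have received 1.28 of the 33 tRF-3004b counts, those of LRP12 0.206 of 15, and those of NM_003383 and NM_001322226 0.135 of 6. Few or no reads of the tRF-3004b library could therefore tell these forms apart, and the deposited estimates place the rest by the model of kallisto. The LRP10 forms differ by 2145 bases, on which 5.29 of 17 counts would fall. The LRP10 share of NM_014045 had an interval of 50.1% to 93.2% in the tRF-3004b library and 97.9% to 100% in the control library, which do not overlap. Those intervals take each estimated count as assigned without error, and 4.43 tRF-3004b counts make up the difference.

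**Figure D4:**
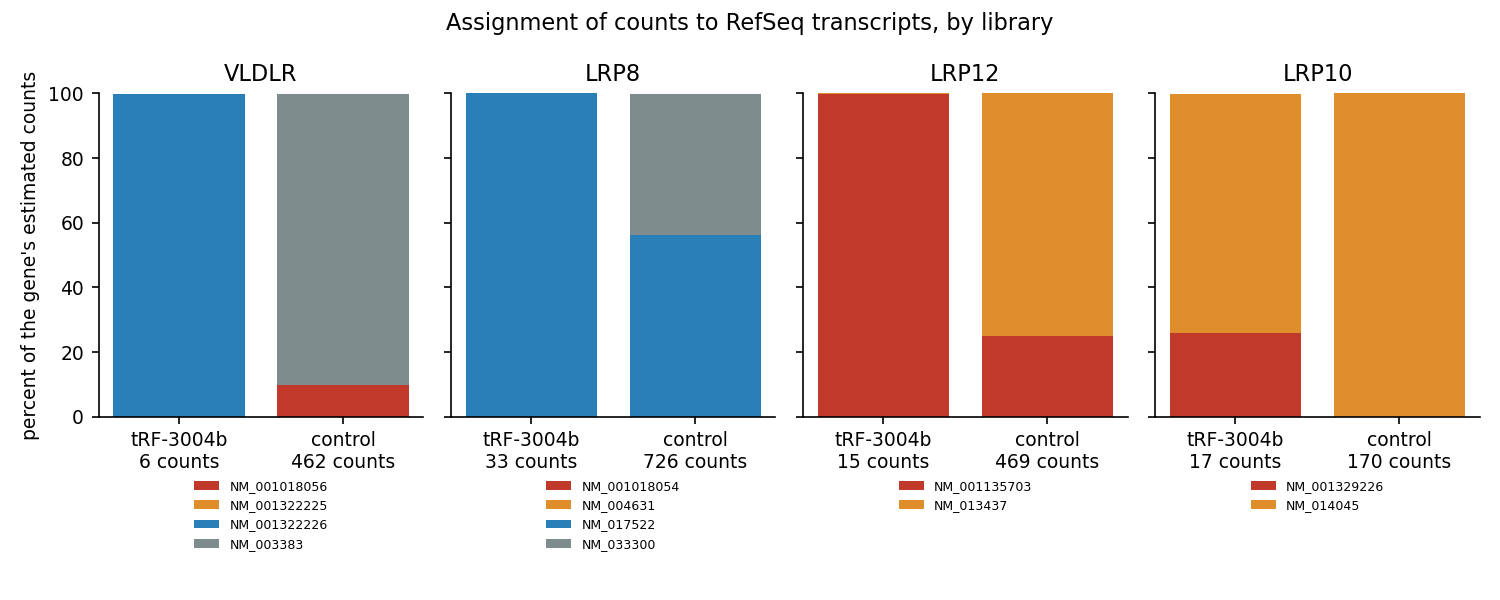
Percent of each gene's estimated counts assigned to each of its RefSeq transcripts (colours) in the tRF-3004b library (left bar) and the control library (right bar), for VLDLR, LRP8, LRP12 and LRP10. In the tRF-3004b library VLDLR, LRP8 and LRP12 are each assigned to a single transcript, on 6, 33 and 15 counts.

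The seed complement of tRF-3004b, AGATTTG, was searched in the longest 3' UTR among the GENCODE 29 transcripts (GRCh38) paired with a gene's RefSeq entries. It was found in VLDLR and LRP6, each with 1 match, and in 13.9% of 17942 genes searched. The 3' UTRs of these receptors are long, at 6185 bases in VLDLR and 5101 in LRP6, and 48.2% and 42.2% of genes with a 3' UTR of similar length (the same window) held a match. The VLDLR match lies at chr9:2656756-2656762 on the plus strand and the LRP6 match at chr12:12120924-12120930 on the minus strand. Both are shown with their flanks, the match in capitals.
VLDLR: gatgaataaacAGATTTGtggcctctggt
LRP6: cttaaaacagcAGATTTGctgcttgtgcc
Neither was followed by an A. LRP1, nearly as low as VLDLR, had no match in its 796-base 3' UTR and 1 match upstream of it, across an exon junction. The other 6 members had none in the 3' UTR or elsewhere in the transcript searched. A match is a description of letters, not a shown target, and the 2 members that hold it had log2 ratios of -2.76 and -0.54. SORL1, one of the other family receptors, also held 1 match in its 3' UTR, at a log2 ratio of -0.90. The complement of the control seed, CGCGTAC, was found in no member and in 0.212% of genes.

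The 250 bases before the annotated start are shown for VLDLR and LRP1, the lowest members, and for LRP10, the highest (RefSeq, GRCh38.p14, all on the plus strand). They lie at chr9:2621537-2621786, chr12:57128233-57128482 and chr14:22871490-22871739. Capitals mark matches, on either strand, to the GC box GGGCGG, the CCAAT box CCAAT and the TCF/LEF core CTTTGA.
VLDLR: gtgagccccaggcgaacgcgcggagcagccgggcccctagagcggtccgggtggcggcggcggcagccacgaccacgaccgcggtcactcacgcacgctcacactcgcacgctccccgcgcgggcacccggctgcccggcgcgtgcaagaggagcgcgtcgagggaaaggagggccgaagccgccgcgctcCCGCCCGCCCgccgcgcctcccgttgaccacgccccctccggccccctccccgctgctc
LRP1: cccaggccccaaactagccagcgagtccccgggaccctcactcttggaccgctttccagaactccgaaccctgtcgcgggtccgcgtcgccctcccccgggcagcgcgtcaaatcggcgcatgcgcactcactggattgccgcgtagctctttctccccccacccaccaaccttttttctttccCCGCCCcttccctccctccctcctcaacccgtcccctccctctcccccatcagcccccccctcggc
LRP10: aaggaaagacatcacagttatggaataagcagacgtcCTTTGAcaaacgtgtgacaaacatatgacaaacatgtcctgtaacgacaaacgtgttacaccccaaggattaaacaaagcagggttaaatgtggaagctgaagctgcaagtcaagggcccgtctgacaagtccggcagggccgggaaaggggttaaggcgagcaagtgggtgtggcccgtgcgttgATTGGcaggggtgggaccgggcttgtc
GC content of the start region was 78.8% in VLDLR, 67.6% in LRP1 and 51.6% in LRP10, with a median of 58.0% over all promoters. LRP5 (87.2%) and LRP3 (83.6%), whose intervals held 0, were higher in GC than VLDLR, and LRP8 had 77.2%. VLDLR held 2 overlapping GC box matches and LRP1 held 1, as did 42.6% of 35116 promoters. LRP10 held none, but a CCAAT box, as did 32.0%, and a TCF/LEF core, as did 11.2%. LRP8, LRP5 and LRP3 also held GC boxes, with 3, 3 and 6 matches. The TATA box TATAAA (10.7% of promoters), the ATF4-type element TGATGNAA (3.14%) and the sterol element TCACNCCAC (0.883%) were in none of the 6 promoters held. The E box CACGTG (6.34%) was in LRP3.

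Genes that act with these receptors showed no shift as wide as that of VLDLR and LRP1. Of 124 listed pathway genes, the other 4 receptors included, 102 reached a mean of 1 CPM, and 12 of them, or 11.8%, were at least 2-fold lower, beside 14.3% of all genes. Another 6 were at least 2-fold higher, beside 12.3% of all genes. The median over the 102 was -0.27, against -0.11 over all genes.

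The extracellular ligands pointed in both directions. Of 17 listed, 14 were measured, with a median log2 ratio of 0.30. Of these, 2 were at least 2-fold lower, beside 14.3% of all genes, and 5 at least 2-fold higher, beside 12.3%. LPL, the lipase that hydrolyses lipoprotein triglyceride and binds VLDLR and LRP1, had 0 counts in the tRF-3004b library and 101 in the control. With 3 counts taken as the floor of the tRF-3004b library, LPL was 3.00-fold lower. The upper end of its counting interval, a log2 ratio of -1.26, is a smaller difference than that. SERPINE2, a protease inhibitor cleared by LRP1, had 34 counts in the tRF-3004b library and 814 in the control library, at a log2 ratio of -1.09 (interval -1.63 to -0.60). A2M, the plasma protease inhibitor taken up by LRP1, had 26 counts in the tRF-3004b library and 6 in the control library, at 5.40 (interval 4.29 to 7.18). Other ligands at least 2-fold higher, named after their values were seen, were THBS1 at 2.16, SELENOP at 1.57 and CALR at 1.03. Fibroblasts make THBS1, and the fibroblast markers summed to 98.0 CPM in the tRF-3004b library and 10.5 CPM in the control library. Their part in these ligand values was not tested. CLU, a reelin-receptor ligand, was at 0.011 (interval -1.35 to 1.12).

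Chaperones and proteases of the receptors lay near the centre. The 9 measured genes of this list had a median of -0.13. Of these, 1 was at least 2-fold lower, beside 14.3% of all genes, and 0 were at least 2-fold higher, beside 12.3%. MESD, the folding factor of LRP5 and LRP6, had 180 counts in the tRF-3004b library and 1529 in the control library, at a log2 ratio of 0.40 (interval 0.17 to 0.63). LRPAP1, the chaperone that guards LRP1 and its relatives from early ligand binding, was at 0.27 (interval -0.07 to 0.59). APH1B, a gamma-secretase subunit, was at -1.10 (interval -2.08 to -0.28), the sheddase ADAM17 at -0.71 (interval -1.07 to -0.38) and PSENEN at 0.38 (interval -0.28 to 0.98).

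Of 15 tail adaptors and reelin signalling genes measured, 13 had log2 ratios below 0, beside 55.5% of all genes, with a median of -0.29. The interval lay below 0 for 7 of the 15, beside 28.6% of all genes, and above 0 for 1, beside 23.3%. At least 2-fold lower were 2, a share near the 14.3% of all genes, and 0 were at least 2-fold higher, beside 12.3%. FYN, the kinase that phosphorylates DAB1, had 137 counts in the tRF-3004b library and 3727 in the control library, at a log2 ratio of -1.28 (interval -1.53 to -1.03). NUMBL was at -1.38, on 3 counts in the tRF-3004b library and 89 in the control library (interval -3.71 to 0.19). DAB1, with 3 counts in the tRF-3004b library and 32 in the control library, was at 0.072 (interval -2.28 to 1.75), and GULP1, an adaptor of LRP1, was at 0.42 (interval 0.10 to 0.73).

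The machinery of clathrin uptake and recycling held genes on both sides of 0. The median over 22 measured genes was -0.24, with 14 of them below 0 and 8 above. The interval lay below 0 for 10 of the 22, beside 28.6% of all genes, and above 0 for 6, beside 23.3%. Their summed counts gave a log2 ratio of -0.20 (interval -0.24 to -0.16). The lowest were the AP2 adaptor subunit AP2A1 at -1.02 (interval -1.80 to -0.35) and the Golgi adaptor GGA3 at -0.94. The highest were epsin EPN1 and clathrin light chain CLTB, both at 0.78.

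Among Wnt genes around LRP5 and LRP6, 23 of the receptor complex were measured, with a median of -0.17. Of these 23, 1 was at least 2-fold lower, beside 14.3% of all genes, and 0 at least 2-fold higher, beside 12.3%. They ranged from FZD4, a Frizzled receptor that pairs with LRP5 in the retina, at -1.14 (interval -2.07 to -0.35), and FZD2 at -0.91 (interval -3.24 to 0.69), to GSK3A at 0.39 and FZD10 at 0.89 (interval -0.50 to 2.07). The 9 inhibitors and turnover factors measured had a median of 0.10. The secreted inhibitor SFRP1 had 6 counts in the tRF-3004b library and 254 in the control library, at -1.90 (interval -3.37 to -0.77), and KREMEN1, which binds DKK proteins and LRP6, was at -0.73 (interval -1.51 to -0.051). APCDD1 stood at 0.86 and DKK3 at 1.47 (interval 0.32 to 2.51). The 10 Wnt target genes measured had a median of -0.38. The intervals of 2, NKD1 at -1.36 and LEF1 at -0.69, lay below 0, beside 28.6% of all genes. CCND1 was at 0.53 (interval -0.32 to 1.29) and DKK1, on 2 counts in the tRF-3004b library and 18 in the control library, at 0.30. Of the agrin pathway, AGRN alone was measured, at 0.87 (interval -0.19 to 1.81), and no other member of that list reached a mean of 1 CPM.

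**Figure D5:**
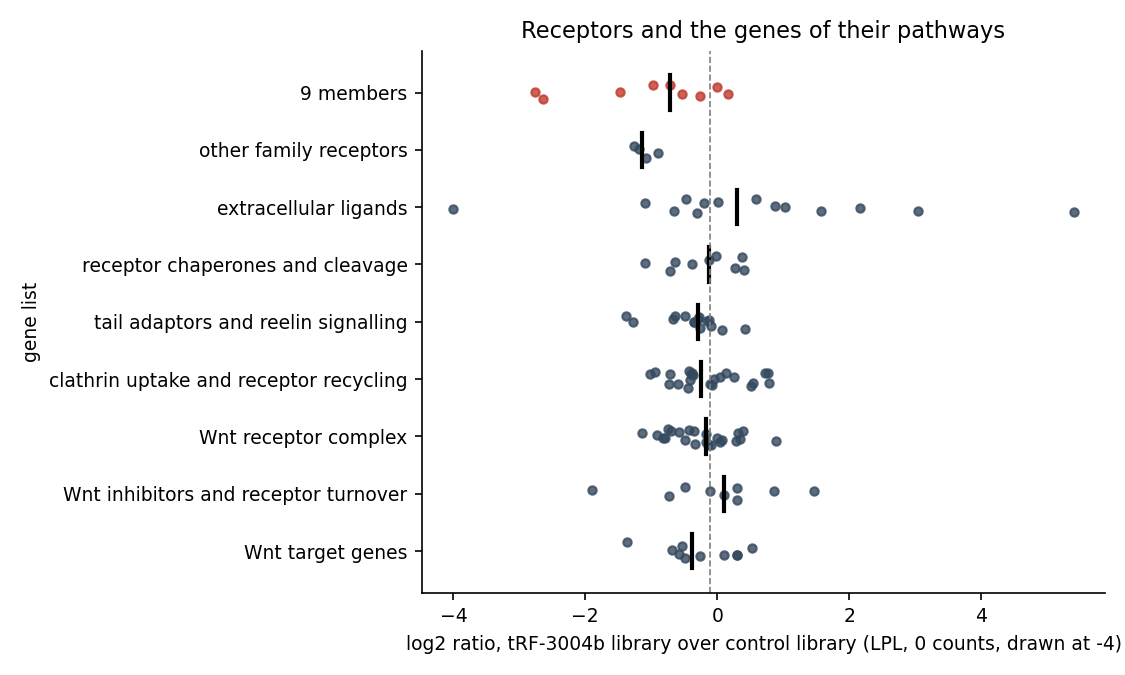
Log2 ratios of the 9 members (red) and of the measured genes of 8 pathway lists (dark blue, 1 point a gene, vertical scatter for display), with the median of each list (black bar) and of all genes (dashed line, at -0.11). The other family receptors lie entirely left of the dashed line, between -1.26 and -0.90, the ligands spread the most, and the clathrin list has a median of -0.24.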

How the data were processed

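The submitters' processing notes name kallisto 0.46.1 and, as genome, GRCh38. The authors deposited, per the file headers, an estimated count and a TPM value (abundance per transcript length, fixed to the same total in each library) for each of 70866 RefSeq transcripts. The sources used here do not state the annotation release, trimming or strand setting. Names came from a RefSeq table (70245 transcripts) and GENCODE 29 (293 transcripts). The other 328 held 0.0713% of tRF-3004b counts and 0.0723% of control counts and were left out.

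Counts and TPM were summed per gene, counts were rounded, and library sizes were scaled with edgeR 4.0.16 (R 4.3.3), whose TMM factors were 0.983 for tRF-3004b and 1.02 for the control. No count test was run, since 1 library per group leaves no spread. The log2 ratio is tRF-3004b over control after adding 0.5 counts on equalised libraries. A 95% interval was taken from the binomial split of a gene's counts between libraries (Clopper-Pearson, nothing added). Isoform shares have Clopper-Pearson intervals and levels exact Poisson intervals. The labels name no molecular identifiers, so neither intervals nor floors cover more than counting error. The interval was tested on simulated counts. The members and gene lists were chosen with earlier results of these data known. Named genes are all members, the other family receptors, and the 2 highest and 2 lowest measured genes of each list, and LRPAP1, CLU, THBS1, SELENOP and CALR were added after their values were seen. Some listed genes are not reported here. Protein features were not analysed here. Python 3.11.15 and scipy 1.17.1 were used.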

Additional observations from a re-analysis of the deposited data

How the results depend on the processing

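The alternatives for the members were total counts, DESeq2 1.42.0 size factors, gene TPM with 1 added, 5 added counts, the most abundant NM transcript, the median of similar-length genes subtracted, and, chosen after seeing the data, the median of genes of similar length and GC content subtracted. VLDLR ranged from -8.83 to -1.999 (TPM) and LRP1 from -2.69 to -1.68. The value of -8.83 for VLDLR, and -8.58 for LRP12, came from the most abundant NM transcript, which had 0 counts in the tRF-3004b library, so the size depends on the added count. The same setting put LRP8 at -0.14. LRP6 was at -0.84 with TPM, at -0.058 with the similar-length median subtracted and at -0.10 with length and GC, each outside its main interval. With a length window of 1.5-fold and at least 10 CPM, the share of comparable genes below the member was 2.29% for LRP12, 14.9% for LRP8, 27.9% for LRP4 and 84.9% for LRP10, and with TPM it was 80.4% for LRP10. The median of the clathrin list was -0.51 with TPM. LRP3, LRP5 and LRP10 changed sign under at least 1 setting, within their intervals. Members at least 2-fold lower numbered 3, and 4 with total counts or TPM. The median of the 9 members was -0.84 with TPM, -0.25 with the similar-length median subtracted and -0.24 with length and GC, against -0.72. With TPM the median of all genes moved by -0.32, and 21.8% of all genes past 2-fold were higher, against 46.2% with scaled counts. Pathway genes at least 2-fold lower numbered 23 without the filter on low counts, against 12, and those at least 2-fold higher numbered 11 without it and 3 with TPM, against 6. No paired analysis was possible because each group has 1 library. For the same reason no library could be left out.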
